A study of Glycine max with 12 samples.

Results

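Soybean leaves from narrow rows were compared with leaves from wide rows in 8 RNA-seq libraries, 4 of each spacing, out of 12 libraries in all. The 8 were taken by season and spacing, as all libraries of 2010 and 2011, because those were the seasons with both spacings. The narrow plots had rows 18 cm apart and the wide plots rows 76 cm apart. Each library came from 1 plot of the cultivar AG1631, and pooled young trifoliate leaves under 2 cm from at least 8 plants at the V3 stage (a seedling stage with a few open trifoliate leaves), grown in the field near Brookings. The design was balanced, so each spacing had 1 weed-free (control) and 1 weedy library in 2010 and again in 2011. Control plots were kept free of weeds with glyphosate at 1.2 L per hectare in 2010, and with glyphosate, s-metolachlor, sethoxydim and imazethapyr in 2011. Weedy plots held flax in 2010, at a density of about 600 per square metre, and velvetleaf with common sunflower in 2011, at about 160. Leaves were taken on June 22 in 2010 and on June 29 in 2011, with 19.4 and 24.2 cm of precipitation up to sampling and temperatures of 25.6 and 26.1 °C.

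Several facts limit how far spacing can be separated from other differences. The only label that gives the spacing carries the name of a read file, and matching the drilled columns of the table to 18 cm and the row columns to 76 cm is an inference. Every narrow library was labelled replicate 2 and every wide one replicate 1, so spacing and anything else that went with the replicate number cannot be told apart. For the narrow weedy library of 2011 the labels call the second read file corrupt. With 1 plot per spacing, weed treatment and season, p-values measure the spread among these plots.

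Row spacing sets how close a soybean plant stands to its neighbours within and between rows. Plants sense neighbours through the phytochrome photoreceptors, which read the low ratio of red to far-red light reflected from green tissue, and the response runs through gibberellin and auxin to elongation growth. Young leaves under 2 cm still divide and expand, so cell cycle genes, histones, expansins (proteins that loosen the cell wall) and aquaporins (water channels) are normally active in them. Jasmonate and WRKY transcription factors belong to defence signalling.

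The difference between spacings was small. Of 30318 genes tested with limma across the 8 libraries, 0 genes (0%) differed at a Benjamini-Hochberg adjusted p under 0.05, and the smallest adjusted p was 0.869. At an unadjusted p under 0.05, 1702 genes differed where 1516 would be expected by chance, 572 of them higher (1.89%) and 1130 lower (3.73%) in narrow rows. The same sign in all 4 pairs of plots of the same season and treatment was seen for 2669 genes higher (8.8%) and 2392 lower (7.89%) in narrow rows. All 4 narrow libraries lay above all 4 wide ones for 201 genes (0.663%) and below them for 296 (0.976%). The median absolute difference was 0.09 on the log2 scale, and 63 genes differed by more than 1, which is a doubling.

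The precision was moderate. The median standard error of a gene's difference was 0.12 log2, and the 95% confidence interval reached a median of 0.29 to either side. The interval lay inside -1 to 1 for 95.4% of genes and inside -0.5 to 0.5 for 69.6%. A doubling was thus outside the interval of nearly all genes, and a change of 0.5 log2 outside that of 69.6%. Smaller changes could still lie inside it.

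In the same 8 libraries the season had a much wider reach than spacing or weeds. Between 2011 and 2010, 10946 genes (36.1%) differed at an adjusted p under 0.05 in limma, 5345 higher (17.6%) and 5601 lower (18.5%) in 2011. Between weedy and control plots 0 genes (0%) passed in limma, and the smallest adjusted p was 0.265. At an unadjusted p under 0.05 there were 1730, where 1516 would be expected by chance. The standard deviation over genes of the narrow minus wide difference was 0.28 in control plots of 2010, 0.31 in control plots of 2011, 0.44 in weedy plots of 2010 and 0.31 in weedy plots of 2011. For weedy minus control it ran from 0.28 to 0.48, and for 2011 minus 2010 from 0.50 to 0.82. Pairs that differed in spacing and pairs that differed in weeds thus had similar spreads, and every season pair had a wider one. With 1 plot per spacing, weed treatment and season, these spreads also hold differences between plots, which cannot be set apart.

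**Figure D1:**
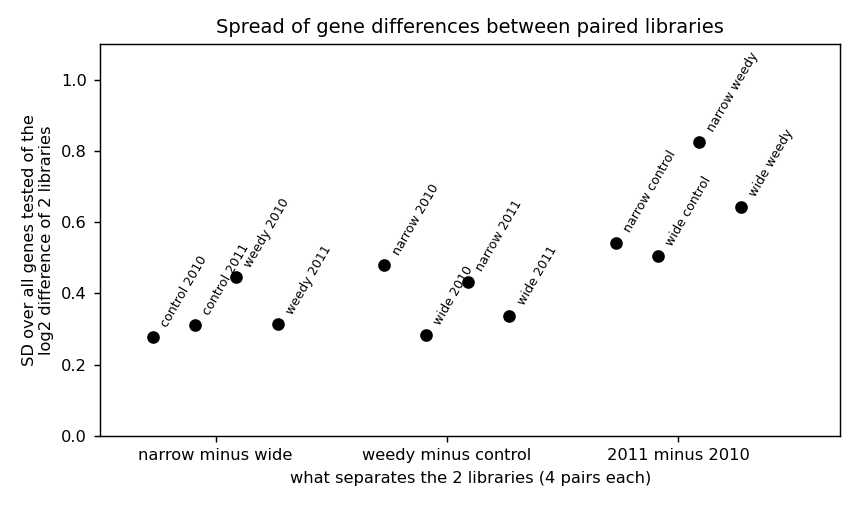
Standard deviation over 30318 genes of the log2 difference between the libraries of a pair (y axis), for pairs that differ in spacing, in weeds or in season (x axis). Each point is 1 pair, labelled with what its libraries share. The season pairs lie between 0.50 and 0.82, above all spacing pairs, which lie between 0.28 and 0.44.

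The pairs did not share 1 pattern across the genome. Over 30318 genes, Pearson's r between the narrow minus wide differences of separate pairs ran from -0.17 to 0.34. These values describe genes that are not independent, and no test was made. In a principal component analysis the seasons lay apart on the first component, with 63.0% of the variance. On the second (13.7%), the narrow weedy library of 2010 stood at -43.8 and the narrow control library of 2011 at -27.2, while the other 6 lay between -6.33 and 25.5. The table holds no counts, so depth is unknown, and all library columns hold the same set of values in a different order.

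The summed levels of markers of other tissue overlapped between the spacings. The summed level of 23 secondary wall genes of stem and petiole ran from 7.30 to 8.27 log2 FPKM in narrow and from 7.23 to 7.79 in wide rows, and that of 8 meristem genes (matches of STM and ANT) from 5.18 to 7.48 and from 5.60 to 7.21. Green leaf markers (17 genes of light harvesting and carbon fixation) summed to between 12.6 and 14.3 in narrow and between 12.9 and 14.3 in wide rows, and were the most abundant of the marker lists. A list meant for root, nodule and seed matched 68 genes, 49 of them described as lipid-transfer proteins, and summed to between 11.7 and 12.7 against 11.8 to 12.5. The list for old leaves (SAG12, NAP, ORE1) matched 0 table entries. Season moved the secondary wall, meristem and green leaf lists, by medians of 0.77, -1.36 and 1.01 in 2011 against 2010. Overlap of ranges over both seasons thus cannot show that pairs were alike. Pair medians of narrow minus wide had both signs in each list. For secondary wall they were -0.09 and -0.02 in control pairs and 0.03 and 0.30 in weedy pairs (2010, 2011). Its genes differed by -0.29 to 0.59, and 0 of 23 had the same sign in all 4 pairs.

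Among the gene lists, 1 stood far from the background. Core histone genes, which encode the proteins that package DNA, were mostly lower in narrow rows. Of 65 list members tested, 55 were lower and 10 higher, and the median difference was -0.32 log2 beside 0.01 over all genes. The 65 include 3 genes of other histone-fold proteins, which are not nucleosome histones, with differences from -0.02 to 0.04. All 4 pairs were lower for 41 of the 65 (63.1%), against the 7.89% of all genes, and higher for 2. The list median was -0.32 and -0.20 in the control pairs of 2010 and 2011, and -0.25 and -0.42 in the weedy pairs. In limma 0 histone genes passed after adjustment. On the lower side 29 had an unadjusted p under 0.05 (44.6%, against 3.73%), and on the higher side 1.

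**Figure D2:**
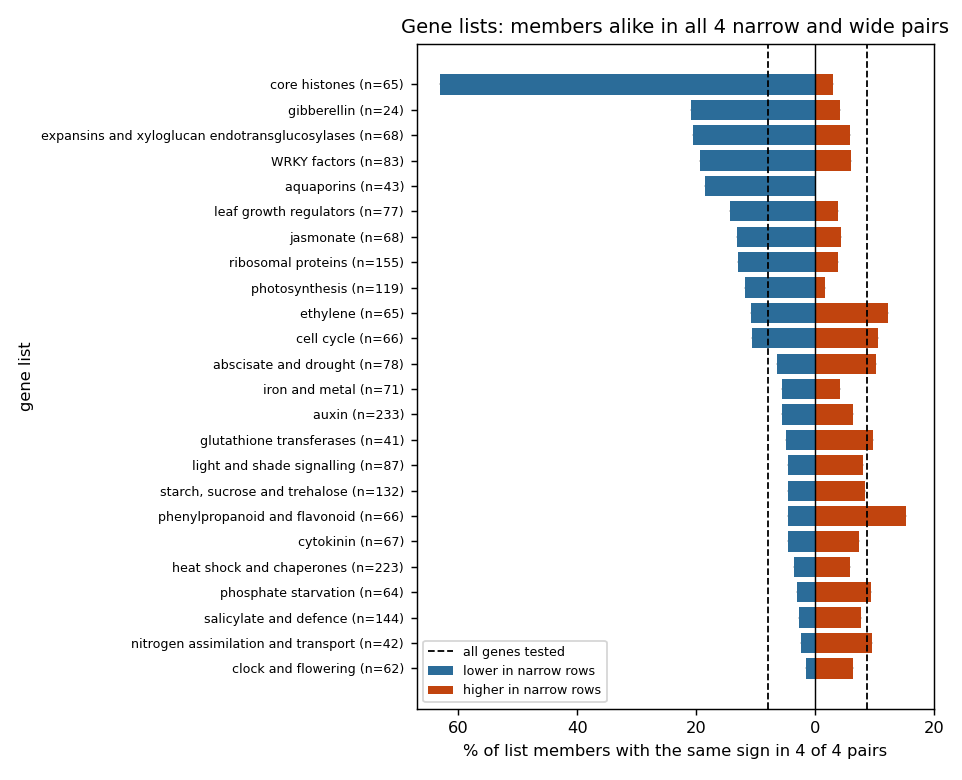
Share of each list's tested members, in percent, that had the same sign of narrow minus wide in all 4 pairs (x axis), to the left where lower in narrow rows and to the right where higher. Dashed lines mark all 30318 genes tested, 7.89% lower and 8.8% higher. The core histone bar reaches 63.1% on the lower side, and the next longest, gibberellin, 20.8%.

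The 2 histones of smallest p were both matches of HIS4, histone H4. Glyma17g07070 (HIS4) stood at 8.62, 8.06, 7.18 and 7.50 log2 FPKM in narrow rows (control 2010, weedy 2010, control 2011, weedy 2011) and at 9.21, 8.93, 7.86 and 8.57 in wide rows. Each narrow library lay below its wide partner, while the groups overlapped because both were lower in 2011. Its fitted difference was -0.80 ± 0.22 (SE, 4 against 4 libraries). Glyma02g38920 (HIS4) stood at 8.48, 6.41, 7.22 and 7.53 in narrow rows and at 9.41, 8.83, 8.37 and 9.58 in wide rows. It was the histone gene with the most negative difference, -1.64 ± 0.46, with the widest gaps in the weedy pairs. Both had an adjusted p of 0.869 in limma.

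The classes of histone differed in size, as read from the Arabidopsis gene that the table matches to each. This grouping was made after the values were seen. Histones made for newly replicated DNA (H2A, H2B, H3.1 and H4) counted 36 genes, of which 35 were lower in narrow rows, 29 of them in all 4 pairs (80.6%), with a median of -0.45. Their class medians were -0.80 for 7 H4 genes, -0.56 for 14 H2B genes, -0.35 for 3 H2A genes and -0.34 for 12 H3.1 genes. Variant and replacement histones, which are laid down outside replication or in special chromatin, counted 26 genes, with a median of -0.06 and 12 lower in all 4 pairs.

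The variants were not alike. The 9 genes of H2A.Z, a variant found near the start of genes, had a median of 0.02 within -0.05 to 0.32, and none (0) was lower in every pair. The 7 genes of H2A.W, a variant of silent chromatin in plants, had a median of -0.27, and 6 were lower in all 4 pairs. For H3.3, which replaces H3 outside replication, the median of 6 genes was -0.17, and 3 of them did not overlap between groups, against 0.976% of all genes. Glyma17g37480 of that class stood at 6.70, 6.49, 6.27 and 6.74 in narrow and at 7.11, 6.91, 6.75 and 7.03 in wide rows, in the same order of libraries, a difference of -0.40 ± 0.15. The match of H2B.8, Glyma15g32270, was instead higher in all 4 pairs, by 0.37 ± 0.15. The linker histone Glyma11g08000 (HIS1-3), which is no member of the list, differed by -0.47 ± 0.19 and was lower in all 4 pairs.

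**Figure D3:**
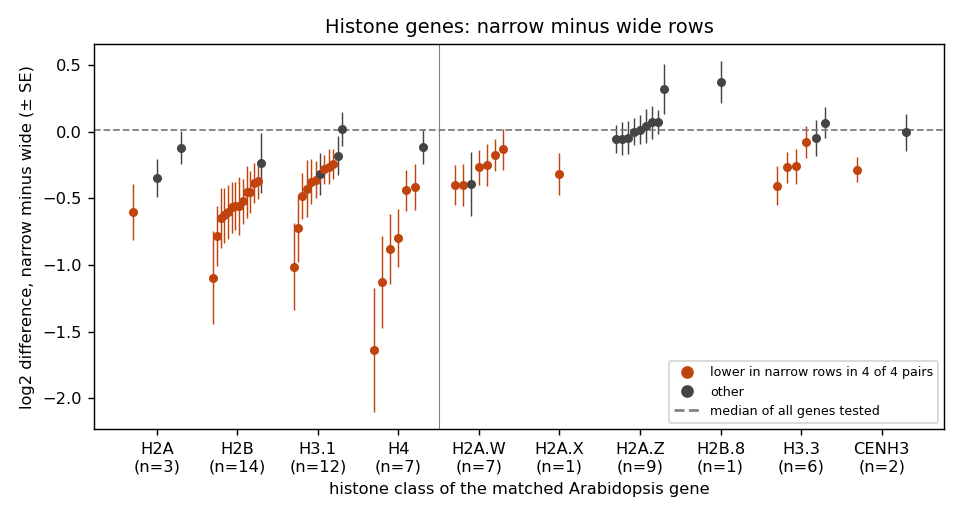
Narrow minus wide log2 difference with its standard error (y axis) for nucleosome histone genes, by class of the matched Arabidopsis gene (x axis), with classes made for replication left of the vertical line. Orange points were lower in narrow rows in all 4 pairs, and the dashed line is the median of all genes tested, 0.01. H4 has the lowest points, down to -1.64, and H2A.Z lies around the line.

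Other genes of DNA replication lay near the background. A list of 82 replication genes (minichromosome maintenance proteins, DNA polymerases, replication factors and ribonucleotide reductase), added after the values were seen, had a median of 0.02, with 5 members lower (6.1%) and 7 higher in all 4 pairs. The cell cycle list of 66 cyclins, kinases and related genes had a median of -0.03, with 7 lower and 7 higher in all 4 pairs. Its member of smallest p was Glyma07g02400 (CDKB1;2), a kinase of mitosis, at -0.35 ± 0.12. For meristem markers, the list median of 8 genes was 0.04.

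Histone levels also followed the season. In 2011 against 2010, 34 of the 65 fell and 1 rose at an adjusted p under 0.05 in limma, against 18.5% and 17.6% of all genes, with a list median of -0.43. In weedy against control plots the list median was 0.14 and 0 members passed. In pooled leaves, fewer dividing cells and less histone RNA per cell cannot be told apart. The median level of the 65 genes was 7.31, 7.18, 6.65 and 6.88 log2 FPKM in narrow rows and 7.62, 7.65, 6.82 and 7.30 in wide rows, in the same order of libraries.

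The histone count rested on several libraries. Without the wide control library of 2010, 7 of 65 had an unadjusted p under 0.05 on the lower side, where 2.31% of all genes did. Without the narrow control library of 2011, the narrow weedy library of 2010 or the wide weedy library of 2011 it was 11 each (16.9%). The shares of all genes in those refits were 3.31%, 2.42% and 1.74%. Without any other library the count was between 24 and 32 (36.9% to 49.2%), against 2.73% to 5.71% of all genes. The list median stayed between -0.40 and -0.23 with each of the 8 libraries left out. Near-identical histone copies can share reads, and the sources used here do not say how such reads were divided, so the 65 genes are not 65 separate measurements.

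Gibberellin genes were of interest because DELLA proteins, which restrain growth until gibberellin removes them, take part in the response to neighbours. All 4 DELLA genes on the list of 24 were lower in narrow rows in all 4 pairs, and 1 of the other 20 members was too. Glyma06g23940 (RGA1) stood at 2.13, 1.37, 1.77 and 1.86 log2 FPKM in narrow rows and at 3.04, 2.57, 2.23 and 2.74 in wide rows. The groups did not overlap, and the difference was -0.87 ± 0.21. Glyma04g21340 (GAI) stood at 1.51, 0.76, 1.39 and 1.22 in narrow and at 2.11, 1.90, 1.60 and 2.33 in wide rows, again without overlap, a difference of -0.76 ± 0.22. The other two, Glyma05g27190 (RGA1) and Glyma08g10140 (RGA1), differed by -0.42 ± 0.13 and -0.47 ± 0.15. Their adjusted p was 0.869 each in limma, and setting these 4 apart from the list was done after their values were seen.

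Receptors and enzymes of the pathway had differences of both signs. The list median was 0.01, and 5 of 24 members were lower in all 4 pairs (20.8%, against 7.89% of all genes) and 1 higher. With keywords matched without regard to capitals, the list grew to 39 genes and the same count made 12.8%. The difference of greatest size on the list was that of Glyma13g36390 (GA2OX8), an enzyme that inactivates gibberellin, at 0.92 ± 0.56, higher in 3 of 4 pairs. The gibberellin receptor Glyma10g02790 (GID1B) was higher by 0.25 ± 0.10 and did not overlap between groups, while Glyma13g25900 (GID1C) was lower by -0.39 ± 0.16. Glyma13g43850 (GA3OX1), an enzyme of the last step to active gibberellin, was the fifth member lower in all 4 pairs, at -0.38 ± 0.18, and the other match of that enzyme, Glyma15g01500, differed by -0.20 ± 0.20.

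Jasmonate genes as a list did not lean to one side. Of 68, 36 were lower and 32 higher in narrow rows, with a median of -0.01 and pair medians of -0.34 and -0.00 in control plots of 2010 and 2011 and 0.16 and 0.00 in weedy plots. In all 4 pairs 9 (13.2%) were lower and 3 higher, against 7.89% and 8.8% of all genes. The members of smallest p were both matches of AOS. Allene oxide synthase makes the first committed precursor of jasmonate. Glyma07g21100 (AOS) stood at 3.55, 3.40, 3.57 and 3.23 log2 FPKM in narrow and at 4.14, 3.75, 4.14 and 4.49 in wide rows, without overlap, and differed by -0.69 ± 0.15. Glyma11g13070 (AOS) differed by -0.55 ± 0.14, and each narrow library lay below its wide partner. The other matches, Glyma17g36530 and Glyma14g08560, differed by -0.25 ± 0.16 and 0.14 ± 0.27. MYC2, the main transcription factor of the jasmonate response, had 5 matches, which were set apart after their values were seen. Of these, 2 did not overlap between groups, where 0.976% of all genes were lower without overlap. They were Glyma08g36720 and Glyma09g33730, at -0.68 ± 0.19 and -0.53 ± 0.16. The other 3 ranged from -0.39 to 0.09. At an unadjusted p under 0.05 in limma, 5 list members were lower (7.35%, against 3.73% of all genes) and 1 higher (1.47%, against 1.89%). Without the narrow control library of 2010 it was 5 lower (7.35%, against 5.71%) and 8 higher (11.76%, against 4.47%). Glyma09g38970 (JMT), which methylates jasmonate, was higher in all 4 pairs, by 0.66 ± 0.23. None passed the adjusted threshold.

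WRKY factors, a plant family of transcription factors, leaned to the lower side in narrow rows. Of 83 tested, 53 were lower and 30 higher, with a median of -0.07. In all 4 pairs 16 (19.3%) were lower and 5 higher, against 7.89% and 8.8% of all genes. At an unadjusted p under 0.05 in limma, 14 were lower (16.9%, against 3.73% of all genes) and 0 higher. Glyma17g33890 (WRKY40) stood at 2.29, 2.14, 2.27 and 1.96 in narrow and at 2.62, 2.69, 2.58 and 2.90 in wide rows, so the groups did not overlap, and it differed by -0.53 ± 0.12. Of the 14, 6 were matches of WRKY11, such as Glyma17g06450 (WRKY11) at -0.31 ± 0.10. The count of 14 was 4 (4.88%, against 2.31% of all genes) without the wide control library of 2010. It was 9 (10.98%, against 5.71%) without the narrow control library of 2010. Without any other library it was 10 or 11 (12.05% to 13.41%, against 1.74% to 4.47%). The list of salicylate and defence genes had 11 of 144 members (7.64%) higher in all 4 pairs, near the 8.8% of all genes, and 4 lower, with a median of 0.04. Its members of smallest p were 2 matches of the resistance gene RPM1, Glyma08g42930 at 0.56 ± 0.22 and Glyma08g42980 at 0.38 ± 0.16.

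The lists of cell expansion had more members lower in all 4 pairs than the 7.89% of all genes, a difference that was not tested. Of 68 expansins and xyloglucan endotransglucosylases, enzymes that cut and rejoin a wall polymer, 14 (20.6%) were lower and 4 higher in all 4 pairs, with a median of -0.09. Glyma18g05040 (EXPA13) stood at 2.09, 1.90, 1.81 and 1.84 in narrow and at 2.50, 2.54, 1.97 and 2.30 in wide rows, a difference of -0.42 ± 0.12, with overlap only through the narrow control of 2010 and the wide control of 2011. Glyma12g32390 (XTH9) differed by -0.52 ± 0.18. Of 43 aquaporins, 8 (18.6%) were lower and 0 higher in all 4 pairs, with a median of -0.07. Glyma04g00450 (PIP3), of the plasma membrane, stood at 5.79, 5.34, 5.16 and 5.61 in narrow and at 6.39, 6.24, 5.69 and 6.81 in wide rows, a difference of -0.81 ± 0.24. Glyma19g37000 and Glyma03g34310, both matches of GAMMA-TIP of the vacuole membrane, differed by -0.73 ± 0.27 and -0.53 ± 0.21. At an unadjusted p under 0.05 in limma, 10 wall genes (14.71%) and 6 aquaporins (13.95%) were lower, against 3.73% of all genes. On the higher side 3 wall genes (4.41%) and 0 aquaporins had such a p, against 1.89%. The counts on the lower side rested on single libraries. Without the wide control library of 2010 they were 2 of 67 (2.99%) and 1 of 42 (2.38%), beside 2.31% of all genes. Without the narrow weedy library of 2010 they were 4 (5.97%) and 1 (2.38%), beside 2.42% of all genes. Without the wide weedy library of 2011 they were 5 (7.46%) and 2 (4.65%), beside 1.74%. The aquaporin count was also 2 (4.65%, beside 3.31%) without the narrow control library of 2011. It was 4 (9.52%, beside 2.73%) without the wide weedy library of 2010. Otherwise the wall count was 8 to 12 (11.76% to 17.65%), beside 2.73% to 5.71% of all genes. The aquaporin count was otherwise 5 to 8 (11.63% to 18.6%), beside 3.63% to 5.71%.

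Among leaf growth regulators, 11 of 77 (14.3%) were lower and 3 higher in all 4 pairs, with a median of 0.02, and 7 of the 11 belonged to the TCP family of growth regulators. Glyma03g02090 (F17K2.21, TCP family) stood at 2.20, 1.82, 1.93 and 1.98 in narrow and at 2.80, 2.57, 2.25 and 2.60 in wide rows, without overlap, a difference of -0.57 ± 0.14. Glyma05g03610, with the same Arabidopsis match, differed by -0.61 ± 0.18. Ribosomal proteins had a median of -0.05 over 155 genes, with 20 (12.9%, against 7.89% of all genes) lower in all 4 pairs. Their list median was 0.10 and 0.01 in the control pairs and -0.29 and -0.07 in the weedy pairs, so it was not alike across pairs. The members of smallest p were Glyma15g01860 (AT3G16080) at -1.16 ± 0.29 and Glyma0169s00200 (AT3G44590), an acidic protein of the large subunit, at -0.79 ± 0.20.

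On the higher side the phenylpropanoid list stood out most. Of 66 genes of lignin and flavonoid synthesis, 45 were higher in narrow rows, 10 (15.2%) in all 4 pairs against 8.8% of all genes, and 3 were lower in all 4 pairs. The list median was 0.12, with pair medians of -0.12 and 0.19 in control plots of 2010 and 2011 and 0.23 and 0.04 in weedy plots. Phenylalanine ammonia-lyase opens the pathway. Glyma10g35380 (PAL2) stood at 3.22, 3.87, 2.71 and 2.59 in narrow and at 3.06, 2.75, 1.85 and 2.30 in wide rows, higher in all 4 pairs by 0.60 ± 0.16, with overlap between the seasons. Glyma20g32140 (PAL2) differed by 0.68 ± 0.26 and was higher in 3 pairs. Of the 10, 5 were matches of TT4, chalcone synthase, the entry to flavonoids, at 0.19 to 0.50.

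**Figure D4:**
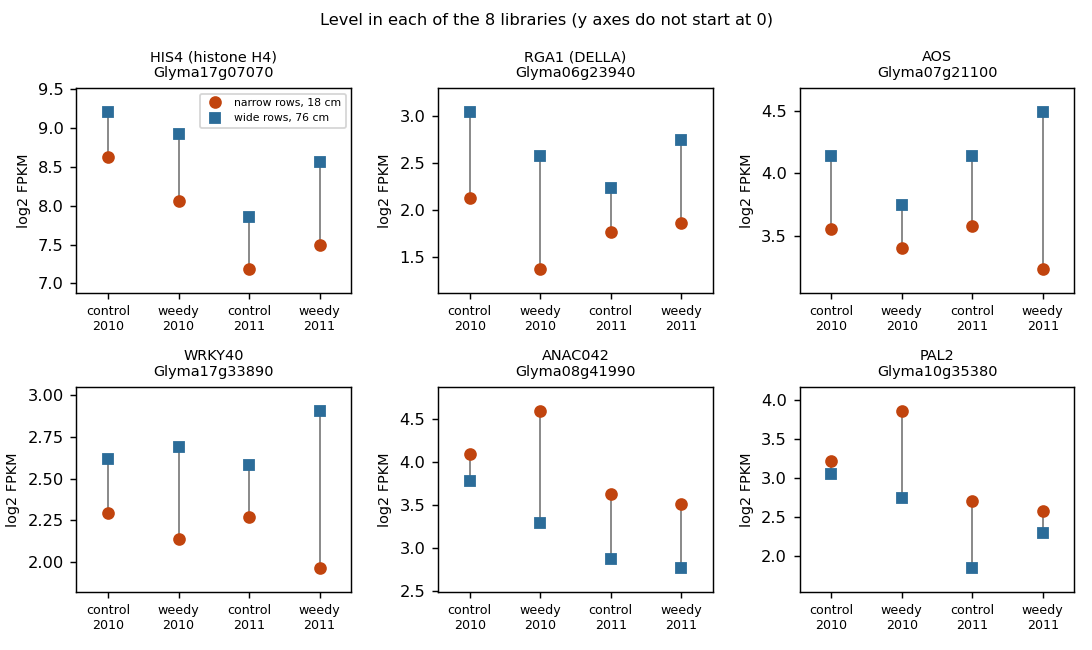
Level in log2 FPKM (y axes, not starting at 0) of 6 genes in each of the 8 libraries, by treatment and season (x axes), with narrow rows as circles and wide rows as squares joined within a pair. In all 4 pairs the narrow library is the lower for HIS4, RGA1, AOS and WRKY40 and the higher for ANAC042 and PAL2.

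Light and shade signalling, the list closest to the sensing of neighbours, did not stand apart. Of 87 genes, 7 (8.05%) were higher and 4 (4.6%) lower in all 4 pairs, and the median was 0.03. Glyma07g16070 (FHY1), which carries phytochrome A into the nucleus, stood at 3.80, 4.42, 3.46 and 4.11 in narrow and at 3.41, 3.60, 3.41 and 3.73 in wide rows, higher in all 4 pairs by 0.41 ± 0.13. Glyma17g15380 (ATHB-2), a homeobox gene known in Arabidopsis to be induced by shade, stood at 2.82, 3.21, 2.64 and 3.31 in narrow and at 3.47, 3.32, 3.11 and 3.57 in wide rows, lower in all 4 pairs by -0.37 ± 0.13. Of the auxin genes 108 were higher and 125 lower in sign, 15 and 13 of them in all 4 pairs, with a median of -0.01. Glyma09g35380 (F19H22.7), a SAUR gene induced by auxin, differed by -0.91 ± 0.25.

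Photosynthesis and clock genes differed from pair to pair. The median over 119 photosynthesis genes was 0.02, made up of 0.16 and -0.30 in control plots of 2010 and 2011 and 0.01 and 0.20 in weedy plots. Even so 14 of them (11.8%, against 7.89% of all genes) were lower in all 4 pairs and 2 higher. Glyma08g08770 (CAB1), a light-harvesting protein, stood at 10.9, 10.2, 10.3 and 11.2 in narrow and at 11.5, 10.9, 11.2 and 12.1 in wide rows, a difference of -0.78 ± 0.33. Of 62 clock and flowering genes 46 were higher in narrow rows, but 4 were so in all 4 pairs, and the pair medians were 0.02, -0.16, 0.20 and 0.25. Glyma07g05410 (LHY), a morning gene of the clock, differed by 0.27 ± 0.13.

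The remaining lists lay near the background. Cytokinin (67 genes), ethylene (65), abscisate and drought (78), heat shock and chaperones (223), nitrogen (42), phosphate starvation (64), iron and metal (71), starch, sucrose and trehalose (132) and glutathione transferases (41) had medians from -0.02 to 0.07. Among their members of smallest p were Glyma07g08590 (ARR2), a cytokinin response regulator, at 0.35 ± 0.11, and Glyma19g31500 (ERD15) of the drought list, at -0.34 ± 0.11. Glyma01g31940 (ATIREG1), an exporter of iron and other metals in Arabidopsis, differed by 0.42 ± 0.11, and Glyma14g02790 (PAP18), a purple acid phosphatase, by 0.31 ± 0.12. The nearby duplicates Glyma07g16830 and Glyma07g16810, both matches of GSTU8, which detoxifies by joining glutathione, differed by -0.49 ± 0.18 and -0.51 ± 0.19.

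Of single genes, those of smallest p among genes alike in all 4 pairs were taken, 8 on each side, as values that did not pass. On the lower side Glyma15g23830 (AT3G22142), a lipid-transfer protein family gene, had the smallest p of all genes, 5.0e-05 unadjusted and 0.869 adjusted in limma. It stood at 0.97, 1.33, 3.46 and 3.60 in narrow and at 2.38, 2.36, 4.48 and 4.30 in wide rows, a difference of -1.04 ± 0.12. The pair differences lay between -1.41 and -0.70, and both groups were higher in 2011. Glyma05g35670 (T20D1.90) stood at 0.24, 0.54, 0.19 and 0.57 in narrow and at 1.42, 1.73, 0.83 and 1.46 in wide rows. The groups did not overlap, with a difference of -0.97 ± 0.14 near the floor of the table. All its narrow values lay under the filter's log2 of 1, so it was tested only because of its wide libraries. Its lack of overlap therefore carries no weight. Glyma01g38070 (AP22.12), of unknown function, stood between 1.39 and 2.57 in narrow and between 2.82 and 3.50 in wide rows, lowest in both in the weedy plots of 2010, a difference of -1.14 ± 0.21 without overlap.

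The other lower genes had less extreme values. Glyma14g09650 (VEP1), named in Arabidopsis for a part in vein patterning, differed by -0.67 ± 0.11, and its matches Glyma07g37120, lower in all 4 pairs too, and Glyma06g04760, lower in 2, by -0.65 ± 0.20 and -0.09 ± 0.17. Glyma13g19560 (F3G5.22), a zinc finger gene, differed by -0.85 ± 0.15, while the matches of the same Arabidopsis gene, Glyma02g10490 and Glyma18g52410, differed by 0.25 ± 0.15 and 0.26 ± 0.20. Glyma11g18460 (T6G21.2), in a ribonuclease H-like family, differed by -0.80 ± 0.13, Glyma13g22650 (AT1G45063), a copper-binding electron carrier, by -0.74 ± 0.14, and Glyma19g45190 (AT3G14240), a subtilase family protease, by -0.56 ± 0.11. Of the 8 lower genes 5 did not overlap between groups, where 0.976% of all genes were lower without overlap. The 8 were picked from these same values by p and sign, which favours such separation, so the count is no support.

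On the higher side Glyma09g31320 (MXA21.150), a protein kinase, stood at 1.57, 1.85, 1.80 and 1.56 in narrow and at 1.03, 0.80, 0.80 and 0.99 in wide rows. The groups did not overlap, and the difference was 0.79 ± 0.13. Among its wide values only 1.03 reached the filter's log2 of 1, so the gene was tested because of its narrow libraries. Its lack of overlap carries no weight either. Glyma08g41990 (ANAC042), a NAC transcription factor, stood at 4.10, 4.60, 3.63 and 3.51 in narrow and at 3.79, 3.29, 2.87 and 2.77 in wide rows, higher by 0.78 ± 0.15. Its match Glyma18g13570 was also higher in all 4 pairs, by 0.50 ± 0.19, and the other, Glyma02g45370, differed by 0.21 ± 0.29.

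Glyma08g28440 (CPuORF10), listed as a conserved upstream reading frame, stood at 5.29, 4.21, 4.95 and 3.98 in narrow and at 4.34, 3.65, 3.81 and 3.54 in wide rows, with both groups higher in control plots. Its difference was 0.77 ± 0.14, and that of its match Glyma18g51390 was -0.08 ± 0.14. The others were Glyma13g10650 (F22D22.4) at 0.94 ± 0.19, Glyma17g29750 (Os05g0121000), of unknown function, at 0.75 ± 0.15, Glyma09g30380 (T23K23.23) at 0.63 ± 0.12, Glyma18g35890 (AT3G07170), with a sterile alpha motif, at 0.62 ± 0.13, and Glyma07g10870 (AT3G18260), a reticulon of the endoplasmic reticulum, at 0.52 ± 0.10. Of the 8 higher genes 3 did not overlap between groups, where 0.663% of all genes were higher without overlap. They were picked in the same way, so this count is no support either.

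Whether the spacing difference changed with season was tested as an interaction. In limma 0 genes (0%) passed, and 370 (1.22%) had an unadjusted p under 0.05, fewer than the 1516 expected by chance. Within 2010 alone 0 genes passed with 964 under an unadjusted p of 0.05, and within 2011 alone 0 passed with 655. Both counts were also under 1516. The genes of smallest p in the interaction had opposite signs in the seasons. Glyma20g36520 (PPCK1), the kinase that activates phosphoenolpyruvate carboxylase, was higher in narrow rows by 0.44 and 0.42 in the control and weedy pairs of 2010 and lower by -0.96 and -0.98 in those of 2011. Glyma01g00320 (FRS5), of a family related to the phytochrome A signalling gene FAR1, went from -0.68 and -1.29 in 2010 to 0.82 and 0.70 in 2011. Their adjusted p was 1.00 in each case.

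The others of this kind were auxin, gibberellin and phosphate genes. Glyma12g03890 (F26H11.4), a SAUR gene, had pair differences of -1.76 and -1.72 in 2010 and of -0.05 and 1.12 in 2011, and Glyma17g37760 (GASA1), a gibberellin-regulated peptide gene in Arabidopsis, of -1.57 and -1.18 and then 0.97 and 0.04. Glyma07g01430 (F11A6.5), a phosphatase-related gene, went from 1.33 and 0.48 to -1.67 and -2.48, and Glyma09g35420 (F19H22.7), another SAUR gene, from 0.66 and 0.44 to -0.94 and -0.84.

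Whether the spacing difference changed with weeds was tested in the same way, and 0 genes (0%) passed in limma. At an unadjusted p under 0.05 there were 619 (2.04%), again fewer than the 1516 expected by chance. Glyma12g36640 (AT3G52105) had the smallest p, with narrow minus wide at -1.02 and -0.89 in control plots of 2010 and 2011 and at 1.12 and 0.83 in weedy plots, and an adjusted p of 1.00. Glyma16g01550 (AT1G53903) and Glyma08g16810 (AT2G31945) had interaction differences of 1.54 ± 0.19 and 2.61 ± 0.40. On the other side were Glyma15g13650 (F26F24.28), a ribosomal protein S27a and ubiquitin gene, at -1.33 ± 0.22, Glyma12g30800 (AT3G44590), an acidic ribosomal protein, at -1.23 ± 0.22, and Glyma06g02820 (MIJ24.9) at -0.95 ± 0.19. For the ubiquitin fusion gene the pairs differed by -0.12 and 0.00 in control plots and by -1.37 and -1.40 in weedy plots.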

How the data were processed

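The authors deposited 1 table with 1 column per library. Per the file headers, the deposited values are log2 FPKM made with the Tuxedo programs, with TopHat 1.0, Cufflinks 1.0 and Cuffdiff 1.0 per the submitters' processing notes. Not given in the sources used here are the build, the strand and any number added before the log. Every library column holds the same sorted values, so a change shared by most genes cannot be seen.

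Of 30498 entries, 39 that shared 19 identifiers were dropped. Genes with log2 of at least 1 in at least 3 of the 8 libraries were tested (30318, with 141 removed). The differences, with season and treatment as covariates, came from limma 3.58.1 in R 4.3.3 (eBayes, trend and robust, statmod 1.5.0), two-sided, adjusted by Benjamini-Hochberg over all genes tested, and the test was checked on simulated data. The plan allowed for linear values, but the log2 values were tested as deposited. The comparison, the 29 gene lists (by the Arabidopsis locus and keywords of the table, 28 with members) and the named genes were chosen with earlier results of these data known. Named genes were the 8 of smallest p on each side alike in all 4 pairs, the 2 of smallest p in a list and the 3 of smallest p on each side of an interaction. Others, such as single histones, DELLA genes, MYC2, TCP and aquaporin genes, were chosen after their values were seen. No identifier matched the reference gene table (0 lines), and no sequences are shown.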

Additional observations from a re-analysis of the deposited data

Results flagged for a closer look

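Among the libraries of 1 spacing, 3 values of named genes lay far from the other 3, by Dixon's criterion, of 164 sets of 4 libraries examined. Chance alone flags about 1 set in 20. Glyma07g11810 (GLN1;1), a glutamine synthetase, was at 2.34 log2 FPKM in the narrow weedy library of 2010, against 1.61 to 1.69 in the other narrow libraries. Glyma15g01860 (AT3G16080), a ribosomal protein gene, was at 7.67 in the wide control library of 2011, against 8.54 to 8.71 in the other wide libraries. Glyma05g03610 (F17K2.21), of the TCP family, was at 2.12 in the narrow control library of 2010, against 1.38 to 1.44 in the other narrow libraries.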

How the results depend on the processing

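No gene passed in the spacing comparison under any of 21 other settings, with the smallest adjusted p between 0.063 and 1.00 and, with 1 library left out, 810 to 3077 genes at an unadjusted p under 0.05. These settings covered the filter, the number added before the log, the moderation, the covariates, a block for each season and treatment pair, and the choice of libraries. Of the other counts, spacing in 2010 ran from 0 to 8 genes with 1 library left out. The 8 (6 higher and 2 lower in narrow rows) came without the narrow control library of 2010, and the cause was not tested. The season count of 10946 ran from 5425 to 10400 with 1 library left out. It was 5425 without the wide weedy library of 2011, 6462 without the wide weedy library of 2010, 6484 without the narrow weedy library of 2011 and 7275 without the wide control library of 2011. No single named gene changed its direction in 1024 refits of 70 genes. None could change its side of the threshold, as no setting called a gene in the spacing comparison. The named genes were chosen from these same values, mostly by small p, so a stable direction was largely set by that choice. With keywords matched without regard to capitals, an alternative chosen after seeing the data, 44 of 73 histone genes (60.3%) were lower in all 4 pairs, and the ribosomal list grew from 155 to 533 genes with a median of -0.06. The share lower in all 4 pairs then was 12.8% of 39 gibberellin genes and 23.4% of 47 aquaporins. The paired fit, with a block for each season and treatment, gave 0 calls, 2391 genes at an unadjusted p under 0.05 and a smallest adjusted p of 0.235 in limma. Its pairs come from the design of plots, since narrow and wide libraries share no replicate number. Depth is unknown, and precision rests on 4 libraries a side.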
